A study of Ovis aries with 3 samples.

Results

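Of the 822 miRNA entries counted in the sheep intestine, 146 were known sheep miRNAs and 676 were predicted, and 3 predicted entries are described here: novel_miR_147, novel_miR_217, and novel_miR_17. They were taken from the count files as the rows novel_mir_255, novel_mir_377, and novel_mir_24, whose mature sequences are those that the study gives under the former names. The numbers in the files are not those of the study, so that the row novel_mir_147 of the files, with 397, 281, and 250 reads in the duodenum, cecum, and colon, is another sequence. The study divides its miRNAs not known in sheep into ones conserved with other species and unannotated ones. Row names do not mark this division, so other predicted entries can be miRNAs known in other species. The 3 miRNAs were chosen by their counts in these 3 libraries, so the levels and ratios are a description and carry no test.

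The tissue was intestinal mucosal epithelial tissue of Small tailed Han sheep (Ovis aries), and the groups differ in the intestinal segment, with no treatment. Small RNA libraries came from duodenum (DU), cecum (CE), and proximal colon (CO). For each segment, RNA of the same 3 ewes aged 11 months was pooled into 1 library, so the counts give no spread between animals. These miRNAs were also measured by qRT-PCR in biological replicates, which are not used here. In pooled tissue, fewer cells of a type and less RNA per cell cannot be told apart.

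A miRNA is a short RNA that an Argonaute protein holds and that represses mRNAs paired with its seed, the bases 2 to 8 from its 5′ end. miRNAs with a shared seed are counted as a family, since they can pair with the same sites. Most animal miRNAs are cut from 1 arm of a hairpin by Drosha and Dicer, and small RNA sequencing counts reads of the arm that is kept. The duodenum digests and absorbs, while the cecum and colon of a ruminant ferment what the small intestine leaves. The count files name no target or role of the 3 miRNAs, and targets predicted in the study were not used here.

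The mature sequences are shown first because the seed comparison and the overlap rest on them. They are DNA letters as in the count files, with the seed in capitals.
novel_miR_147: cGCGACCTcagatcagacgt
novel_miR_217: tCGAGCCTgacagatcacacac
novel_miR_17: tGGAGCCGgagctggttagcgg
Their lengths were 20, 22, and 22 bases, and 60.0%, 54.5%, and 68.2% of their bases were G or C. The median share of G and C was 45.0% over the known and 47.6% over the predicted entries. The first base was T in novel_miR_217 and novel_miR_17, as in 40.4% of the known and 38.6% of the predicted entries. It was C in novel_miR_147, as in 7.5% of the known and 15.8% of the predicted entries. As background, the large-subunit ribosomal RNA of mammals is known to open with the sequence of novel_miR_147. Per its methods, the study removed reads that matched ribosomal RNA in GenBank and Rfam before it predicted miRNAs. No ribosomal RNA sequence was used here, so whether this removal reached reads of novel_miR_147 was not tested. Whether these reads come from a miRNA or from ribosomal RNA was not tested either.

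In total, 14462675 reads were counted in the duodenum, 15072945 in the cecum, and 13769740 in the colon, where each segment stands for its library. Levels are given as normalized reads, that is, the count for every 1000000 reads that map to the genome. Intervals of counts are exact Poisson 95% intervals, and those of ratios are exact binomial ones for the share of reads that fell in each library of a pair. Both cover counting error of reads only and leave out the spread between animals. Copies of 1 molecule made by PCR are not told apart in the counts, so for molecules the intervals can be too narrow. The lowest count above 0 was 5 in the predicted entries and 1 in the known entries of every library.

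The tissue markers that were found under their listed names had reads in each library, at widely different levels. All 4 epithelial miRNAs listed (oar-miR-200a, oar-miR-200b, oar-miR-200c, and oar-miR-194) were counted, with a summed level of 28477 normalized reads in the duodenum, 20415 in the cecum, and 33447 in the colon. The members did not share 1 order: oar-miR-194 was highest in the duodenum, with 9162, 4306, and 6071 normalized reads, and the other 3 were highest in the colon. Of 5 names listed for smooth muscle and other mesenchyme, 2 were rows of the files (oar-miR-143 and oar-miR-133). Their sums were 275517, 429636, and 399532 normalized reads in the same order, nearly all from oar-miR-143. The part of oar-miR-133 was 236, 534, and 294. As background, both miRNAs are best known from cells below the epithelium. oar-miR-150, a lymphocyte miRNA, had 289, 149, and 175 normalized reads. The part of these differences in tissue in the levels below was not tested.

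novel_miR_147 had the most reads of the 3 miRNAs in each library, with its highest level in the duodenum and its lowest in the colon. It had 269247 reads in the duodenum, 77223 in the cecum, and 50129 in the colon. These correspond to 16090 (16029 to 16151), 4541 (4509 to 4573), and 3026 (2999 to 3052) normalized reads. By level it was the entry of rank 10 in the duodenum, 22 in the cecum, and 27 in the colon. Its reads were 7.74% of all reads of predicted entries in the duodenum (Wilson 95% interval 7.71 to 7.77%), 4.37% in the cecum (4.34 to 4.40%), and 3.80% in the colon (3.76 to 3.83%). It therefore stood among the entries of known and predicted miRNAs with the most reads, and was the predicted entry of rank 3, 7, and 8.

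novel_miR_217 was likewise highest in the duodenum and lowest in the colon, over a wider range and at lower levels. The duodenum held 3700 reads of it, the cecum 1046, and the colon 206. Its levels were 221 (214 to 228), 61.5 (57.8 to 65.4), and 12.4 (10.8 to 14.3) normalized reads. In rank it went from 80 in the duodenum to 109 in the cecum and 166 in the colon. The intervals of its 3 levels did not overlap, and neither did those of novel_miR_147 or novel_miR_17. These intervals cover counting error only, and the 3 miRNAs were chosen by these counts, so nothing is read from the gaps between them. How many of all entries have such gaps was not counted.

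novel_miR_17 ran the other way and was lowest in the duodenum. It had 247 reads in the duodenum, 2036 in the cecum, and 1421 in the colon. The normalized levels were 14.8 (13.0 to 16.7), 120 (115 to 125), and 85.8 (81.4 to 90.3) in this order. The highest level was in the cecum and not in the colon, so novel_miR_17 was not graded from the duodenum through the cecum to the colon. Its rank was 155 in the duodenum, 91 in the cecum, and 98 in the colon, above novel_miR_217 in both libraries of the large intestine and below it in the duodenum.

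**Figure D1:**
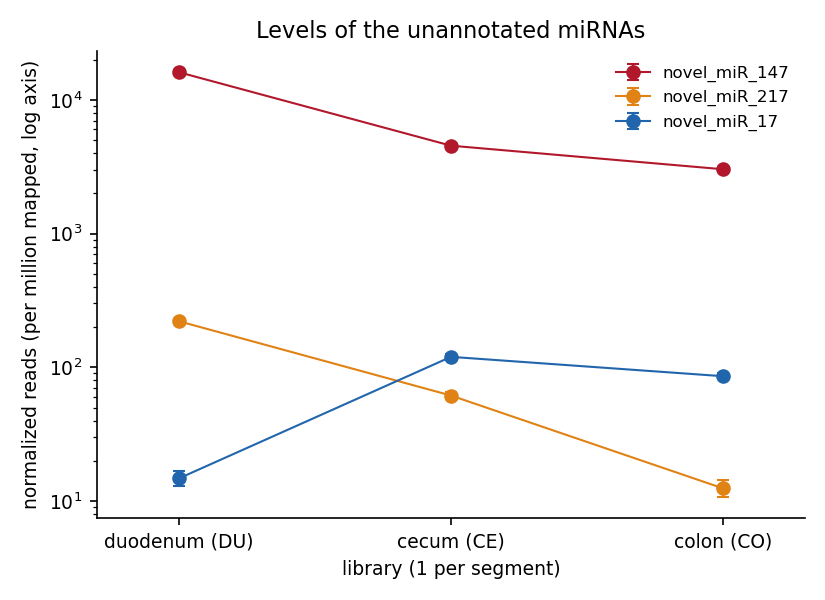
Normalized reads (per 1000000 mapped reads, log axis) of the 3 miRNAs in duodenum (DU), cecum (CE), and colon (CO), 1 library per segment; bars are exact Poisson 95% intervals of counting error. novel_miR_147 and novel_miR_217 have 16090 and 221 in the DU and 3026 and 12.4 in the CO library, while novel_miR_17 has its highest level, 120, in the cecum.

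**Figure D2:**
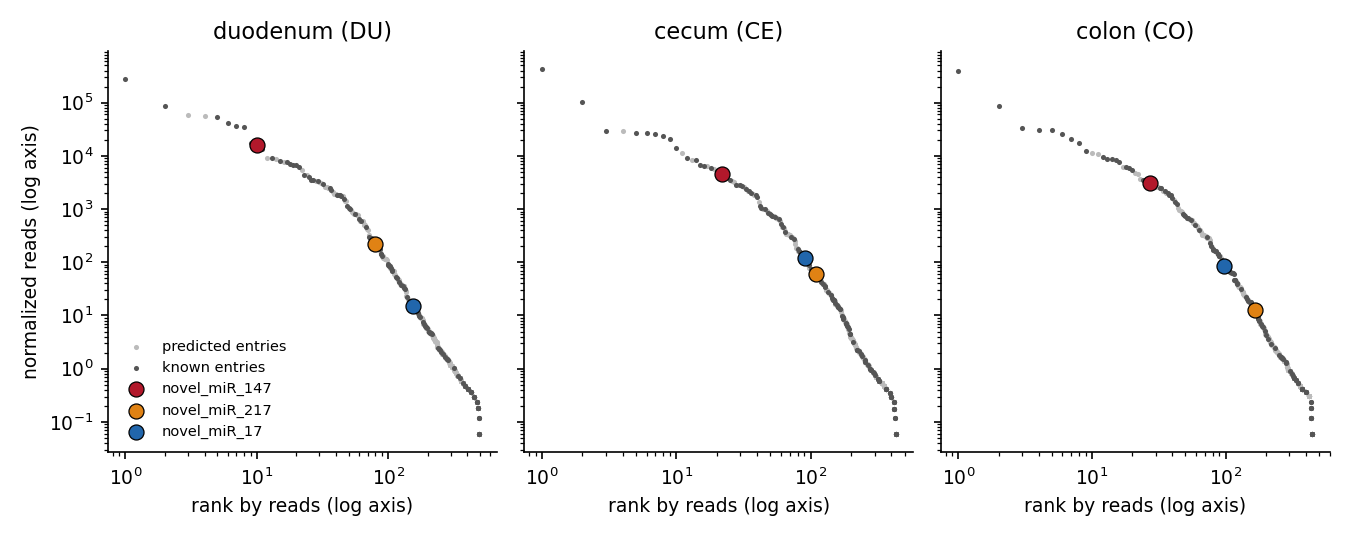
Normalized reads against rank by reads (both log axes) of all entries with reads in duodenum, cecum, and colon, with the 3 miRNAs as coloured points. novel_miR_147 lies at rank 10, 22, and 27, and novel_miR_217 and novel_miR_17 exchange places between the duodenum and the other two.

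For the comparison of segments, a difference of at least 2-fold was read against all entries that reached 1 normalized read in the one or the other library. Between the DU and CE libraries, 145 of 348 entries differed by at least 2-fold, which is a background of 41.7%, and 74 of these had 0 reads in 1 of the libraries. The pairs of libraries share the DU, CE, or CO library, so their ratios are given side by side only. These contrasts chose the miRNAs, so nothing is read from their number.

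Between the DU and CE libraries, all 3 miRNAs passed 2-fold, novel_miR_147 and novel_miR_217 toward the duodenum and novel_miR_17 toward the cecum. The log2 ratio of CE to DU was -1.83 (-1.84 to -1.81) for novel_miR_147, a level 3.54-fold higher in the duodenum. For novel_miR_217 it was -1.85 (-1.95 to -1.75), or 3.59-fold. The interval of novel_miR_147 lay within that of novel_miR_217, although their levels differ widely. For novel_miR_17 the log2 ratio was 3.02 (2.83 to 3.22), with a level 8.11-fold higher in the cecum. Among the 274 entries that had 10 or more reads in each of these libraries, 39 were at least 2-fold higher in the duodenum (14.2%) and 20 in the cecum (7.3%). The median log2 ratio of these entries was -0.17, with quartiles of -0.68 and 0.41. In the order of fold in their own direction, novel_miR_17 was at place 3, novel_miR_217 at place 10, and novel_miR_147 at place 12.

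Between the DU and CO libraries, where 145 of 363 entries (39.9%) differed by at least 2-fold, all 3 miRNAs passed 2-fold again, each in the same direction relative to the duodenum. The log2 ratio of CO to DU was -2.41 (-2.42 to -2.40) for novel_miR_147, or 5.32-fold (5.27 to 5.37) higher in the duodenum. It was -4.15 (-4.36 to -3.95) for novel_miR_217, or 17.8-fold (15.5 to 20.6). Of the 277 entries that had 10 or more reads in both, 26 (9.39%) were at least 2-fold higher in the duodenum, and novel_miR_217 had the largest fold of them and novel_miR_147 that of place 6. novel_miR_17 had a log2 ratio of 2.54 (2.34 to 2.74), or 5.81-fold (5.07 to 6.68) higher in the colon, at place 3 of the 23 entries (8.3%) at least 2-fold higher there. The median log2 ratio of all 277 entries was -0.09.

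Between the CO and CE libraries, only novel_miR_217 passed 2-fold, against a background of 93 in 326 entries (28.5%). From CO to CE, it had a log2 ratio of 2.31 (2.09 to 2.53), or 4.95-fold (4.26 to 5.77) higher in the cecum. Among the 278 entries that had 10 or more reads in both, 7 (2.52%) were at least 2-fold higher in the cecum, and it had the largest fold of them. novel_miR_147 had a log2 ratio of 0.59 (0.57 to 0.60), and novel_miR_17 one of 0.48 (0.38 to 0.58). Both were higher in the cecum, by 1.50-fold and 1.40-fold, with intervals of counting error that leave out 0. With no spread between animals in the counts, these small differences within the large intestine cannot be compared with biological error.

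Over all 3 libraries, 248 entries had at least 10 reads in each, of which 94 were known and 154 predicted. The order DU, CE, CO from high to low, that of novel_miR_147 and novel_miR_217, was seen in 54 of the 248 entries (21.8%). Of the 40 predicted entries with this order, 13 differed by at least 2-fold between the highest and lowest library, against 0 of 14 known entries. The 13 include novel_miR_147 and novel_miR_217, which were chosen by their counts. In the order DU, CO, CE these numbers were 17 of 45 predicted and 2 of 17 known entries. In the order CE, CO, DU they were 4 of 17 and 7 of 25. The order CE, CO, DU, that of novel_miR_17, was seen in 42 entries (16.9%), 25 known and 17 predicted. The fold between the highest and the lowest library was 17.8 for novel_miR_217, 8.11 for novel_miR_17, and 5.32 for novel_miR_147. These were the places 3, 6, and 9 of the 248 entries, and 3, 5, and 8 of the 154 predicted ones, whereas the median log2 range over all 248 was 0.71.

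**Figure D3:**
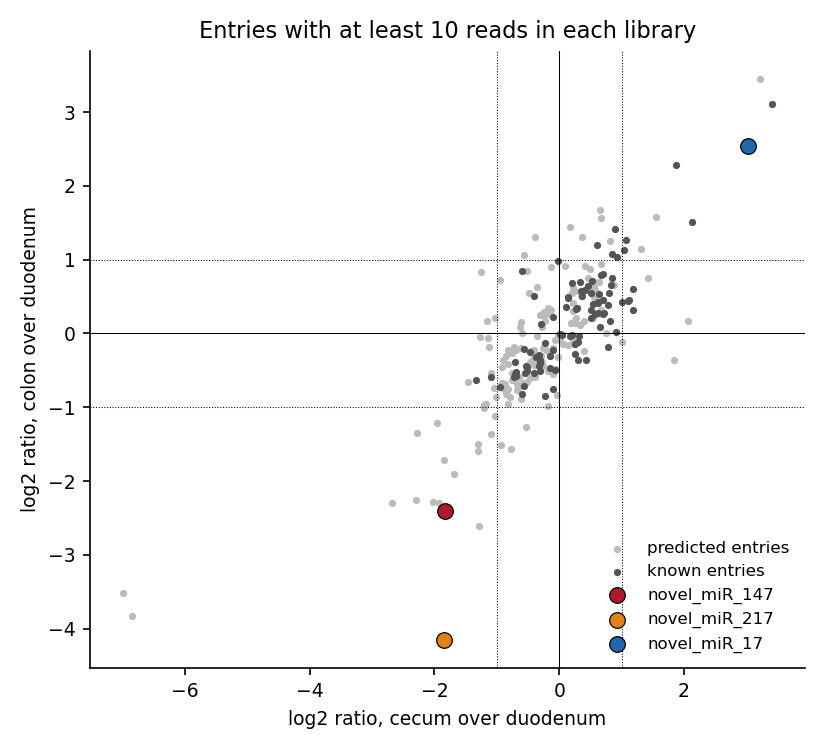
Log2 ratio of CO to DU (vertical) against log2 ratio of CE to DU (horizontal) for the 248 entries with at least 10 reads in each library; dark points are known and light points predicted entries, and dotted lines mark 2-fold. novel_miR_147 (-1.83 and -2.41) and novel_miR_217 (-1.85 and -4.15) lie at the lower left, and novel_miR_17 (3.02 and 2.54) at the upper right. Both axes share the duodenum.

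Entries with a like pattern were sought by the distance in the plane of both log2 ratios to the duodenum, over these 248 entries and 3 libraries. The predicted entry closest to novel_miR_147 was novel_mir_181 of the files, at a distance of 0.15, with 1949, 522, and 392 reads in duodenum, cecum, and colon, respectively. Next came novel_mir_286 at 0.23 and novel_mir_167 at 0.49, both with at most 77 reads. The nearest known sheep miRNAs lay farther away, oar-miR-148a at 1.84, oar-miR-150 at 1.90, and oar-miR-194 at 1.96. novel_miR_217 lay farther from its nearest entries than the other two did. The nearest predicted ones were novel_mir_408 of the files at 1.65 (160, 67, and 26 reads), novel_miR_147 itself at 1.74, and novel_mir_181 at 1.85. The nearest known sheep miRNAs, oar-miR-150, oar-miR-148a, and oar-let-7i, lay at 3.54, 3.55, and 3.56. Whether the predicted ones are known in other species was not tested.

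For novel_miR_17, the nearest entry was a known sheep miRNA, oar-miR-10b, which is encoded in a Hox cluster. How many of all entries have a known sheep miRNA as their nearest was not counted. oar-miR-10b lay at a distance of 0.70, with levels of 2448, 26129, and 21198 normalized reads in duodenum, cecum, and colon, respectively. oar-miR-485-3p followed at 1.17 with 40, 149, and 193 reads, and oar-miR-10a, also encoded in a Hox cluster, at 1.36 with 6130, 26739, and 17517 normalized reads. The nearest predicted entries were novel_mir_153 of the files at 0.94 (525, 4983, and 5692 reads), novel_mir_91 at 1.76 (195, 581, and 576 reads), and novel_mir_99 at 2.208 (176, 444, and 384 reads). In oar-miR-10b and oar-miR-10a the highest level was in the cecum, as in novel_miR_17, while in novel_mir_153 and oar-miR-485-3p it was in the colon.

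No known sheep miRNA in the files had the seed of any of the 3 miRNAs. The 146 known rows held 117 different seeds, and none was closer than 2 mismatches. The 676 predicted rows held 434 different seeds. How many of all predicted rows share a seed with a known row was not counted, so the lack of a shared seed is not called particular to these miRNAs. Mismatches are written with the base of the predicted miRNA first, its position from the 5′ end, and the base of the other miRNA. With novel_miR_147, 3 known miRNAs had 2 mismatches, of which oar-miR-221 (G4T and C7A) had 4879, 4641, and 2860 reads, and the other two, oar-miR-3956-3p and oar-miR-410-5p, had at most 3 reads in a library. With novel_miR_17, the closest was oar-miR-495-5p (G3A and C6T), with 7, 16, and 13 reads. With novel_miR_217, the closest had 3 mismatches, 6 miRNAs in all, and of these oar-miR-103 (C2G, G3C, and C7A) had the most reads, 16741, 12882, and 11470. For novel_miR_147 and novel_miR_217, the closest known miRNA with the most reads is shown, with its seed in capitals, to compare with the sequences above.
oar-miR-221: aGCTACATtgtctgctgggttt
oar-miR-103: aGCAGCATtgtacagggctatg
With bases 2 to 7 in place of 2 to 8, or with the window moved by 1 base to either side, no known seed was shared either. The nearest case was a shift of 1 base toward the 3′ end, where novel_miR_217 reads as oar-miR-485-5p with 1 mismatch.

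Among the other predicted rows, only 1 shared a seed with the 3 miRNAs. This was novel_mir_248 of the files, which is the sequence of novel_miR_217 without its last base.
novel_mir_248: tCGAGCCTgacagatcacaca
It had 0 reads in all 3 libraries, so that novel_miR_217 took all the reads counted under this seed. For novel_miR_147 the nearest predicted seed had 1 mismatch (C3A), in the nested rows novel_mir_191 and novel_mir_362. For novel_miR_17 it had 2 mismatches, in 12 rows, and novel_miR_217 was one of these. Between each other, the seeds of novel_miR_217 and novel_miR_17 had 2 mismatches (C2G and T8G) and a longest shared run of 5 bases over the whole sequences. The seed of novel_miR_147 had 4 mismatches with each of the others.

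Of the 3 miRNAs, novel_miR_217 overlapped with another row and the others did not. With 3 miRNAs, this cannot be told apart from the shares of all predicted rows, which were high. A run of at least 16 bases with another row was found in 359 of the 676 predicted rows (53.1%), and 279 (41.3%) contained or were contained in another row. In 72 of 192 nested pairs (37.5%), both rows had reads but never in the same library. novel_miR_217 was in 1 nested pair, with novel_mir_248, and since the latter had no reads, no reads were counted apart in that row. novel_miR_147 and novel_miR_17 shared no run of 16 bases with any row on either strand, and none of 12 bases. Their longest shared run with any row was 8 bases. No other row had the same 3 counts as one of them.

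The hairpins that the study predicted for the 3 miRNAs are shown because the folds described next rest on them. In its list, novel_miR_147 lay in 1 hairpin sequence, novel_miR_217 in 4, and novel_miR_17 in 2, of which 1 is 4 bases longer. The mature sequence is in capitals, in the longest hairpin for novel_miR_17 and in hairpins 1 and 4 for novel_miR_217.
novel_miR_147 hairpin: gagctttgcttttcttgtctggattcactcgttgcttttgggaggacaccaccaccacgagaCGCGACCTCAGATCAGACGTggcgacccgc
novel_miR_217 hairpin 1: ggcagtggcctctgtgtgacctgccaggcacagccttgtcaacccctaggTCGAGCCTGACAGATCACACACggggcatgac
novel_miR_217 hairpin 4: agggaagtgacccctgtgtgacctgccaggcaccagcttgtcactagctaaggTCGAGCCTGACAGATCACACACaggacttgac
novel_miR_17 hairpin: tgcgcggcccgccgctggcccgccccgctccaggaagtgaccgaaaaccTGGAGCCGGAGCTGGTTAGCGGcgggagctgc
In all 7 hairpin sequences, the mature sequence lay in the 3′ part. The 4 hairpins of novel_miR_217 were 82.6% to 97.6% identical to each other and held the same mature sequence, so its reads cannot be assigned to 1 of them. Apart from novel_mir_248, no other row of the files lay within a hairpin, on either strand, and so no row gave reads of an opposite arm.

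Folded with RNAfold, the hairpins differed in stability. That of novel_miR_147 had a minimum free energy of -23.8 kcal/mol, or -25.9 per 100 bases, and 31 of the 559 hairpin sequences in the list (5.55%) were less stable on this scale. The 2 hairpins of novel_miR_17 had -50.4 and -53.6 kcal/mol, or -65.5 and -66.2 per 100 bases, and were at places 18 and 13 from the most stable. The 4 hairpins of novel_miR_217 lay between, at -44.5 to -36.1 per 100 bases, while the median of the list was -43.3. Of the 20 mature bases of novel_miR_147, 15 were paired, but only 13 of them with bases before the mature sequence, and 2 with bases after it. In novel_miR_17, 19 of 22 mature bases were paired, and in novel_miR_217, 15 to 17 of 22. The median share of paired bases over the mature sequences of the list was 86.4%, and that of novel_miR_17 was equal to it, whereas novel_miR_147 had 75.0% and novel_miR_217 had 68.2% to 77.3%. A fold is computed from sequence alone and is no measurement of processing.

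**Figure D4:**
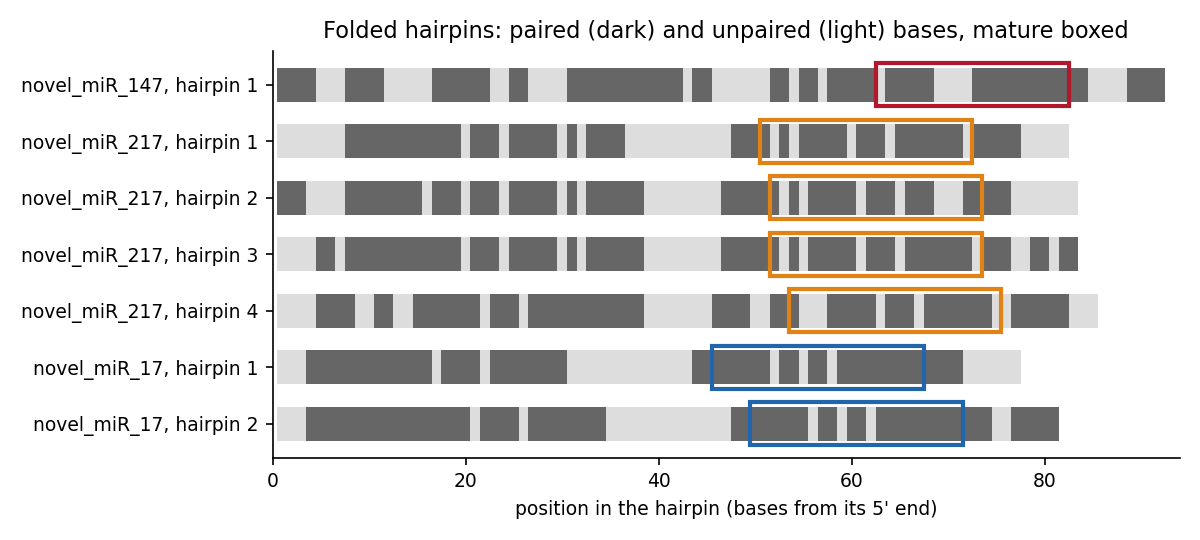
Paired (dark) and unpaired (light) bases in the minimum free energy fold of each of the 7 hairpin sequences, by position from the 5′ end in bases; the box marks the mature sequence. In the hairpins of novel_miR_217 and novel_miR_17, the box lies after an unpaired loop and all its pairs reach back to the 5′ arm, while in that of novel_miR_147, 2 of the 15 paired bases reach past its 3′ end.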

How the data were processed

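Count files of the DU, CE, and CO libraries were used, 1 library per segment. Per the study's methods, the authors removed low-quality, adapter, polyA, and short reads, mapped clean reads to Oar_v4.0 (SOAP), matched them to miRBase for known miRNAs, removed ribosomal and other structural RNA (GenBank, Rfam), and ran miReap on the rest, and the submitters' processing notes name Bowtie. They deposited raw read counts without normalization. How rows were numbered is not given in the sources used here.

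Counts were divided by the reads mapped to the genome, as the study gives them, per 1000000. No test was made for the miRNAs described. edgeR's quasi-likelihood test needs replicates, and the Audic-Claverie test of the study's methods served only as an alternative for the number of entries past 2-fold. The miRNAs described and the lists were chosen with earlier results of these data known. The miRNAs named are the 3 described, rows sharing their seed or sequence, the 3 known and 3 predicted rows nearest in log2 ratios, and the tissue markers. Other library sizes, filters, seed windows, and shared runs were tried as alternatives. The ratios and intervals were tested on simulated Poisson counts. These held no spread between animals and no copies made by PCR, so that test checks the computation only. Hairpin sequences came from the study's list and were folded with RNAfold 2.7.2. SciPy 1.17.1, edgeR 4.0.16, and DESeq2 1.42.0 were used. The depth of each library and the intervals stand with the values. No genome was used, so positions are not given.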

Additional observations from a re-analysis of the deposited data

How the results depend on the processing

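No paired analysis was possible because there is 1 library per segment, and no replicate could be left out. No ratio of the 3 miRNAs changed its sign or its side of 2-fold under another library size or with 1 read added to both counts. Adding overlapping rows applied to novel_miR_217 only, and as the row added has 0 reads, it could change no value. With all clean reads as the library size, the levels of novel_miR_147 became 9791, 2915, and 1977 normalized reads in duodenum, cecum, and colon, respectively, those of novel_miR_217 135, 39.5, and 8.13, and those of novel_miR_17 8.98, 76.9, and 56.1. With the sum of the counts, they became 18617, 5123, and 3641, then 256, 69.4, and 15.0, and then 17.1, 135, and 103. The log2 ratios of novel_miR_147 left their narrow counting intervals under every library size. From DU to CE they were -1.75 (clean reads), -1.86 (sum of counts), -1.70 (edgeR TMM), and -1.73 (DESeq2 size factors), from DU to CO -2.31, -2.35, -2.25, and -2.37, and from CO to CE 0.56, 0.49, 0.55, and 0.64, in the same order. That of novel_miR_217 from DU to CE moved to -1.72 with TMM. TMM shifted the log2 ratios of all entries by 0.12 from DU to CE and 0.16 from DU to CO, and clean reads by 0.10 from DU to CO. The numbers of entries past 2-fold between DU and CE, DU and CO, and CO and CE became 340, 339, and 258 with no filter (of 593, 607, and 548 entries), and 59, 49, and 26 with at least 10 reads in both libraries (of 274, 277, and 278 entries). The latter filter leaves out every entry with 0 reads in 1 library, of which 74, 86, and 59 were past 2-fold. Under the other library sizes and the Audic-Claverie test, these numbers changed by less than 1.5 times, to 106 to 163, 115 to 159, and 74 to 116 entries. Leaving aside the added row, all 18 alternative levels moved beyond their counting interval, since another library size rescales every level of a library. Of the 45 alternative ratios, 32 stayed within their interval. These include every ratio with 1 read added, which could hardly move at such counts, so the number does not measure robustness. The other seed windows and the shared run of 12 bases changed none of their numbers. Depth limits novel_miR_217 in the colon and novel_miR_17 in the duodenum most, with 206 and 247 reads.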

Other observations

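The predicted rows with the seed nearest to that of novel_miR_147 were a nested pair with different libraries. novel_mir_191 had 0, 0, and 375 reads in duodenum, cecum, and colon, respectively, and novel_mir_362, which is 1 base longer, had 653, 431, and 0 reads.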
